A study of Mus musculus with 6 samples.

Results

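Matricellular proteins are secreted molecules that sit in the extracellular matrix and change how cells adhere, divide and respond to growth factors. The RNA of 10 genes of this kind was followed in cultured neural stem cells: the tenascins Tnc and Tnr, the SPARC family genes Sparc, Sparcl1, Spock1, Spock2 and Fstl1, the thrombospondins Thbs1 and Thbs3, and Fn1, which encodes the adhesive matrix protein fibronectin. They were taken by symbol from the 17006 genes of each table, and all 10 were found. The list was chosen by protein family with earlier values of the aged against young comparison in these same libraries known, among them those of Tnc and Sparc. What the members show in that comparison is therefore a description and not independent evidence.

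The cells were primary neural stem cells of C57BL/6 mice, grown from the subventricular zone, which lines the lateral ventricles and keeps producing neurons and glia in adults. The aged group came from mice of 15 to 18 months and the young group from mice of 2 months, with 3 libraries each, and no transgene or treatment is given for either. Before dissociation, tissue of 5 mice was pooled. The RNA is that of cells grown in a medium for proliferation, not of the tissue. The labels do not say whether the 3 libraries of an age came from separate pools, so p-values measure the spread between these libraries, which may be technical. Levels are FPKM (fragments per kilobase of transcript, scaled to library size), which allows genes of different length to be compared.

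In the adult subventricular zone, tenascin C is a known component of the stem cell niche that alters the response of progenitors to growth factors, while tenascin R is made by the oligodendrocyte lineage and some neurons and belongs to perineuronal nets. SPARC binds calcium and collagen and loosens cell adhesion. Its relative SPARC-like 1, also called hevin, is secreted by astrocytes and promotes the formation of excitatory synapses, an activity that SPARC counteracts. Testicans (Spock1, Spock2) are proteoglycans that carry a SPARC-type calcium-binding domain, and follistatin-like 1 (Fstl1) binds BMP ligands and dampens their signal.

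The sequences just before the annotated transcription start are shown for Tnc, Sparc and Fstl1, which had the 3 largest log2 changes among the members tested. Each line holds the 250 bases before the start, 5′ to 3′ on the strand of the gene, from RefSeq (GRCm38.p6, the mm10 assembly). Tnc lies on the minus strand (chr4:64047016-64047265), Sparc on the minus strand (chr11:55420081-55420330) and Fstl1 on the plus strand (chr16:37776805-37777054). Capitals mark matches, on either strand, to 4 motifs: a TATA box spelled TATAAA, a GC box spelled GGGCGG, a box spelled CCAAT, and an AP-1 type site spelled TGANTCA.
Tnc: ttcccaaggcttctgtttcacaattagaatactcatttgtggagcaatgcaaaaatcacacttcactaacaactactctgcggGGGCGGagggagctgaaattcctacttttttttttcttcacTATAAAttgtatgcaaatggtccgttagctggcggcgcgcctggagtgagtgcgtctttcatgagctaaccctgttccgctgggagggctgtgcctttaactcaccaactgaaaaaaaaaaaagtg
Sparc: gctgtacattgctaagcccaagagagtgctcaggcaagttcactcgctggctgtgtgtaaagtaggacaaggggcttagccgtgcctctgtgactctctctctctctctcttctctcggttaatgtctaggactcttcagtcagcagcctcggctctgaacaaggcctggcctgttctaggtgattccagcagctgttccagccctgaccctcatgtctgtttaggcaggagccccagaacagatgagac
Fstl1: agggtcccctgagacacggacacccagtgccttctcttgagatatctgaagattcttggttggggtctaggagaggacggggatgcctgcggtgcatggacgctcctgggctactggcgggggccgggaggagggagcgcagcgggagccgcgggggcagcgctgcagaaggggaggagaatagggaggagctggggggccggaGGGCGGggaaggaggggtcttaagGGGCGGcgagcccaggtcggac

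The Tnc window holds 1 match to the GC box, whose first base lies 167 bases before the start, and 1 match to the TATA box spelling at 126 bases. These are matches of letters only. Other spellings were not sought, and whether a match acts as a promoter element was not tested. The table gives Tnc a second start a little further downstream, with an overlapping window that holds the same pair of matches. Before that second start, the GC box lies at 246 bases and the TATA box spelling at 205 bases. The Fstl1 window holds 2 GC boxes, at 46 and 22 bases before the start. In the Sparc window these letters were not found. No matches overlapped. Among 32851 promoter windows of the same length, 12.4% hold this TATA box, 32.7% the GC box, 33.8% the CCAAT box and 6.75% the AP-1 type site. The share of G and C was 44.8% for Tnc, 54.0% for Sparc and 68.0% for Fstl1, against a median of 52.4% over all windows, and the windows held 8, 4 and 16 CpG. Of the other members, the table has Tnr, Spock1, Spock2 and Thbs3, and not Sparcl1, Thbs1 and Fn1.

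The members differed widely in level, and 3 of them made up almost all of their RNA. Tnc averaged 275.6 FPKM over the 6 libraries and ranked 243 among the 17006 genes, above 98.6% of them. Sparcl1 followed at 110.3 FPKM and Sparc at 86.3 FPKM. The ranges of these 3 genes over the 6 libraries did not meet. Spock2 (8.62 FPKM) and Fstl1 (7.95 FPKM) came next, with overlapping ranges. Fn1 (5.05 FPKM) and Thbs3 (3.73 FPKM) also had ranges that met, while Tnr (2.48 FPKM) lay below both. At the bottom, Thbs1 averaged 0.377 FPKM and Spock1 0.113 FPKM. Together the 10 genes summed to 453.6 ± 5.16 FPKM in aged libraries and 547.4 ± 6.24 FPKM in young libraries (SD, n = 3 each). Of that sum, Tnc held 54.2% in aged and 55.8% in young libraries, Sparcl1 23.5% and 20.8%, Sparc 16.1% and 18.2%, and the other 7 genes 6.16% and 5.24%.

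**Figure D1:**
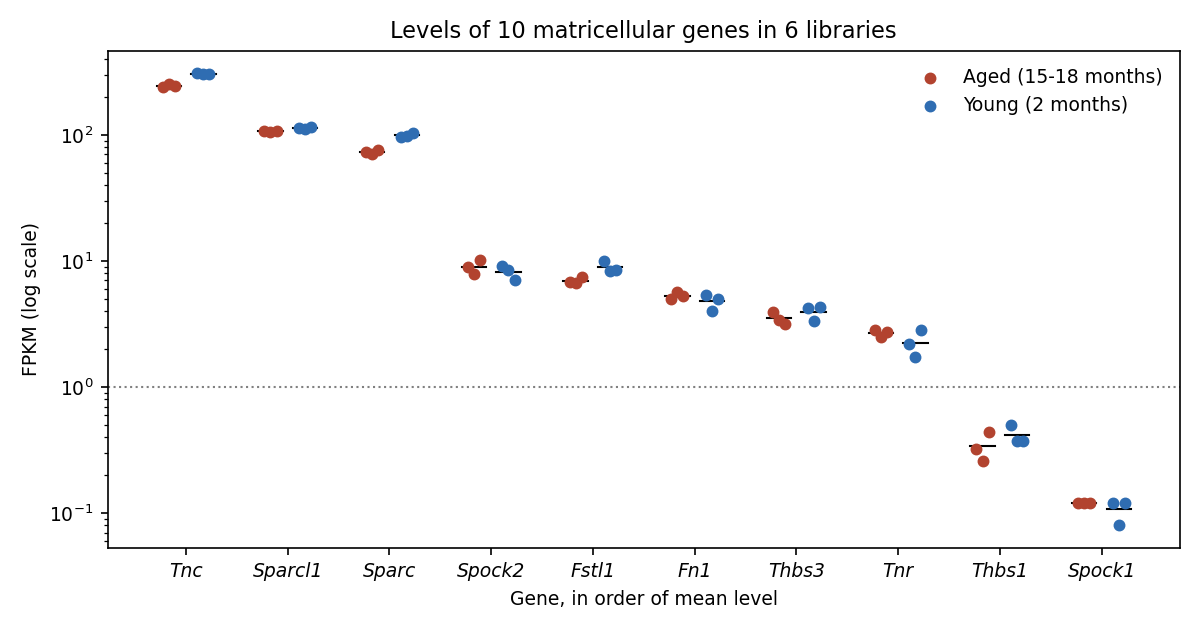
FPKM of each of the 10 genes (log axis) in the 3 aged and 3 young libraries, with points for libraries and black lines for group means. The dotted line marks 1 FPKM, the mean level a gene needed to be tested: Thbs1 and Spock1 lie under it, and Tnc stands highest at 239.96 to 308.07 FPKM.

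Steps in the low values put the libraries at about 5321000 to 5408000 counted reads in the aged and 5469000 to 5495000 in the young group, and 15116 to 15238 genes were above 0 in a library. Log2 values of the tested genes correlated across genes, which are not independent replicates, at 0.9862 to 0.9898 between any pair of libraries. Markers fitted the label: the 6 neural stem and progenitor genes Nes, Sox2, Vim, Fabp7, Egfr and Olig2 were all above 1 FPKM and summed to 5279 to 5461 FPKM in aged and 5361 to 5525 FPKM in young libraries. The 6 astrocyte markers, whose cells also make Sparcl1 and Sparc, summed to 568.2 to 576.0 FPKM in aged and 580.5 to 589.1 FPKM in young libraries. Of these markers, Aldh1l1 and Gja1 averaged lower in aged libraries, Slc1a3, Gfap, S100b and Aqp4 averaged higher, and none was called. The 5 markers of neuroblasts and neurons summed to 16.2 to 19.1 FPKM in aged and 12.6 to 14.1 FPKM in young libraries, mostly from Tubb3 and Snap25, neither of which was called. The 5 oligodendrocyte markers summed to 6.76 to 7.25 FPKM in aged and 7.78 to 9.37 FPKM in young libraries. The 3 markers of oligodendrocyte precursors summed to 22.1 to 23.8 FPKM in aged and 15.4 to 17.5 FPKM in young libraries, mostly from Cspg4. Each of the 3 (Pdgfra, Cspg4 and Gpr17) was higher in every aged library than in any young one. Over all tested genes, 8.98% were higher without overlap. None of these 3 markers was called (limma adjusted p of 0.309, 0.0604 and 0.116). Of 8 fibroblast and pericyte markers, a source of Sparc, Fn1, Fstl1 and Thbs1 in other tissues, 7 were in the tables and 1 (Col1a1) reached a mean of 1 FPKM. They summed to 3.11 to 4.08 FPKM in aged and 0.93 to 1.16 FPKM in young libraries, with Dcn listed at 0 in 5 of the 6 libraries and Pdgfrb at 0 in 5. Col1a1, a chain of type I collagen, was itself called higher. It averaged 2.46 ± 0.39 FPKM in aged and 0.423 ± 0.115 FPKM in young libraries (SD, n = 3 each), a ratio of 5.81. The log2 change of FPKM + 1, which understates changes of low genes, was 1.28 (limma adjusted p = 0.0107). Col1a2, the other chain, averaged 0.633 FPKM in aged and 0.0133 FPKM in young libraries, under the filter. Col3a1, also under the filter, averaged 0.13 FPKM in aged and 0.02 FPKM in young libraries, without overlap. Acta2 averaged 0.313 FPKM in aged and 0.48 FPKM in young libraries, and Rgs5 was listed at 0 in every aged library and in 1 of 3 young ones. Endothelial markers (4 of 5 in the tables) summed to 0.45 to 0.69 FPKM in aged and 0.55 to 1.23 FPKM in young libraries, and microglial ones (2 of 5) to 0.36 to 0.46 FPKM in aged and 0.19 to 0.34 FPKM in young libraries. Markers of ependyma and choroid plexus (4 of 5 in the tables) reached a sum of 13.5 FPKM in aged and in young libraries, with overlapping ranges. The part of these sums in the results was not tested.

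Each gene averaging 1 FPKM or more was tested with limma on log2(FPKM + 1), and a gene was called at an adjusted p under 0.05. Of the 10 members, 8 were tested, 2 were called, both lower in aged libraries, and 6 were not called. Over all 11912 genes tested, 0.722% were called, with 0.395% lower and 0.327% higher in aged libraries. Because the members were chosen with this comparison known, their count is not read against that share. In 4 of the 8, the aged and young libraries did not overlap, each time lower in aged libraries (8.58% of all tested genes were lower without overlap, and 8.98% higher). The median log2 change of the 8 was -0.114, against 0.003 over all tested genes. In bulk RNA, fewer cells that express a gene and less of its RNA per cell cannot be told apart.

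Tnc (gene 21923, mm10 chromosome 4, 63959785 to 64047015), the tenascin of the stem cell niche, fell in aged cultures. It measured 239.96, 252.13 and 245.52 FPKM in aged libraries and 308.07, 303.38 and 304.25 FPKM in young libraries. The highest aged library stood well below the lowest young one, and the gap was several times the spread within either age. The means were 245.9 ± 6.09 FPKM in aged and 305.2 ± 2.49 FPKM in young libraries (SD, n = 3 each), a difference of -19.4%. On the log2(FPKM + 1) scale the change was -0.31 ± 0.03 (SE; limma adjusted p = 0.00397). These levels correspond to about 9340 estimated reads in an aged and 11900 in a young library, where read counting alone would give a coefficient of variation of 0.971%. The observed coefficient was 2.48% in aged and 0.817% in young libraries.

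Tnr (gene 21960, chromosome 1, 159523729 to 159931729), the tenascin of perineuronal nets and oligodendrocytes, was low in these cultures. Its values were 2.84, 2.51 and 2.75 FPKM in aged libraries and 2.21, 1.74 and 2.81 FPKM in young libraries. The ranges overlapped, because the third young library lay within the aged range. The log2 change was 0.20 ± 0.14 (SE), with a 95% interval from -0.12 to 0.52 and a limma adjusted p of 0.66. Levels of Tnc were 84.5 to 100.5 times those of Tnr in aged libraries and 108.3 to 174.4 times in young libraries, so tenascin RNA was nearly all Tnc at both ages.

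Sparc (gene 20692, chromosome 11, 55394159 to 55420080), which encodes the founding member of its family, had the largest log2 change among the tested members, and it fell. Aged libraries held 73.24, 70.19 and 75.48 FPKM, and young libraries 96.90, 98.96 and 103.02 FPKM. No aged library came near the young range. The means were 73.0 ± 2.66 FPKM in aged and 99.6 ± 3.11 FPKM in young libraries (SD, n = 3 each), a difference of -26.8%. The log2 change was -0.44 ± 0.04 (SE; limma adjusted p = 0.00397), on about 899 estimated reads in an aged and 1260 in a young library. Read counting alone would give Sparc a coefficient of variation of 3.05%, and the observed one was 3.64% in aged and 3.13% in young libraries. The spread behind its p-value was thus close to that of counting. Without limma's trend of variance on level, neither Sparc nor Tnc was called (limma adjusted p of 0.063 and 0.0809).

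Sparcl1 (gene 13602, chromosome 5, 104079108 to 104114088), which encodes hevin, differed little. It measured 106.77, 105.89 and 107.64 FPKM in aged libraries and 114.38, 111.53 and 115.77 FPKM in young libraries. The groups did not overlap, but the means, 106.8 ± 0.875 FPKM in aged and 113.9 ± 2.16 FPKM in young libraries (SD, n = 3 each), differed by -6.26%. Its log2 change was -0.09 ± 0.03 (SE) and was not called (limma adjusted p = 0.293). The coefficient of variation was 0.82% in aged and 1.9% in young libraries, where read counting alone would give 2.46%. Since Sparc differed more than Sparcl1, the ratio of their levels was 1.46, 1.51 and 1.43 in aged libraries and 1.18, 1.13 and 1.12 in young libraries. Every aged ratio was above every young one, and this difference in the ratio was not tested. It follows from the same values as the changes of the pair.

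Fstl1 (gene 14314, chromosome 16, 37777055 to 37836516), the BMP-binding member, had a log2 change of FPKM + 1 as large as that of Tnc, measured on far fewer reads. Its values were 6.77, 6.71 and 7.44 FPKM in aged libraries and 9.94, 8.32 and 8.49 FPKM in young libraries. All aged libraries were lower than all young ones. The means were 6.97 ± 0.405 FPKM in aged and 8.92 ± 0.89 FPKM in young libraries (SD, n = 3 each), a difference of -21.8%. The log2 change was -0.31 ± 0.09 (SE), with a 95% interval from -0.51 to -0.11, and it was not called over all genes (limma adjusted p = 0.196). It rests on about 141 estimated reads in an aged and 185 in a young library. With 0.1 in place of 1 added to FPKM, the log2 change was -0.35 for Fstl1 and -0.31 for Tnc.

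**Figure D2:**
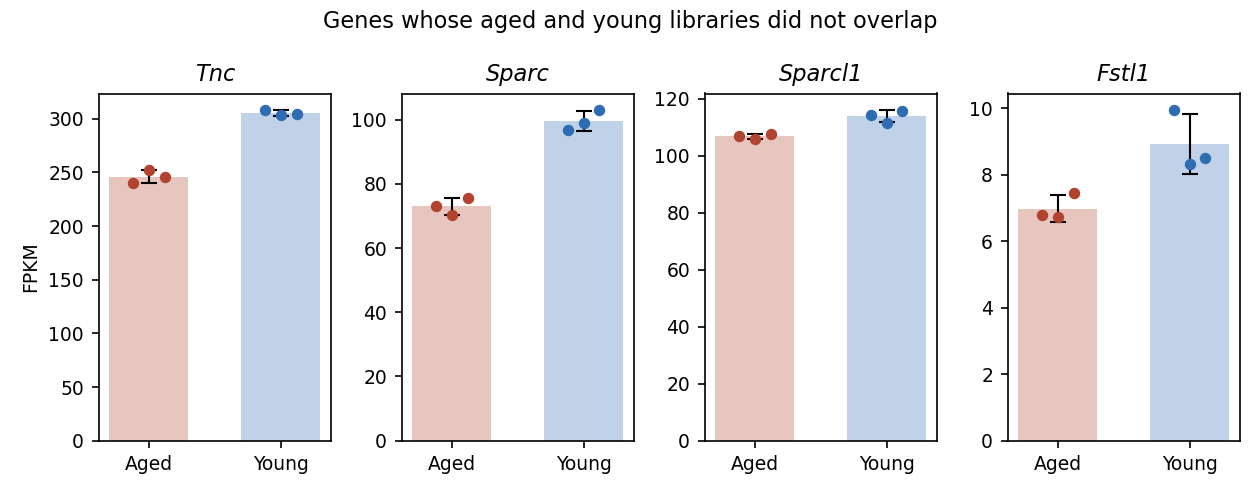
FPKM of Tnc, Sparc, Sparcl1 and Fstl1 in the aged and young libraries, with bars for group means, error bars for the SD (n = 3 each) and points for libraries. Each panel has its own scale from 0. In all 4 panels the 3 aged points lie under the 3 young ones, by the most in relative terms for Sparc (-26.8%) and the least for Sparcl1 (-6.26%).

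The testicans gave no call. Spock2 (gene 94214, chromosome 10, 60106257 to 60135198), which encodes testican-2, measured 8.93, 7.85 and 10.18 FPKM in aged libraries and 9.16, 8.52 and 7.05 FPKM in young libraries. The groups were interleaved, and the log2 change was 0.11 ± 0.11 (SE; 95% interval -0.15 to 0.37; limma adjusted p = 0.778). Spock1 (gene 20745, chromosome 13, 57421195 to 57908332), which encodes testican-1, was listed at 0.12 FPKM in all 3 aged libraries and at 0.12, 0.08 and 0.12 FPKM in young libraries. Those values stand for about 2.01 estimated reads in an aged and 1.83 in a young library, so no difference was detectable at this depth.

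Among the thrombospondins, which are secreted glycoproteins that bind cell surface receptors and, from astrocytes, promote synapse formation, neither member was called. Thbs3 (gene 21827, chromosome 3, 89215180 to 89226841) measured 3.93, 3.43 and 3.16 FPKM in aged libraries and 4.24, 3.33 and 4.30 FPKM in young libraries. The ranges overlapped, with a log2 change of -0.13 ± 0.12 (SE; 95% interval -0.41 to 0.14; limma adjusted p = 0.735). Thbs1 (gene 21825, chromosome 2, 118111876 to 118127133) was under the filter. It lay at 0.32, 0.26 and 0.44 FPKM in aged libraries and 0.50, 0.37 and 0.37 FPKM in young libraries, about 10.7 and 13.2 estimated reads. The spread within the ages was 27.0% in aged and 18.2% in young libraries, where counting alone would give 28.9%.

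Fn1 (gene 14268, chromosome 1, 71585473 to 71653280), the ligand of many integrins, which is usually counted as a structural matrix protein, averaged 5.05 FPKM, above 47.2% of all genes. Its values were 5.03, 5.66 and 5.25 FPKM in aged libraries and 5.40, 4.01 and 4.96 FPKM in young libraries. The aged range overlapped the young one. The log2 change was 0.13 ± 0.11 (SE; 95% interval -0.12 to 0.38; limma adjusted p = 0.718), so a change of either sign up to these bounds is compatible with the values. The tables give Fn1 as 1 value over 7 transcripts, so its splice forms are not told apart.

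**Figure D3:**
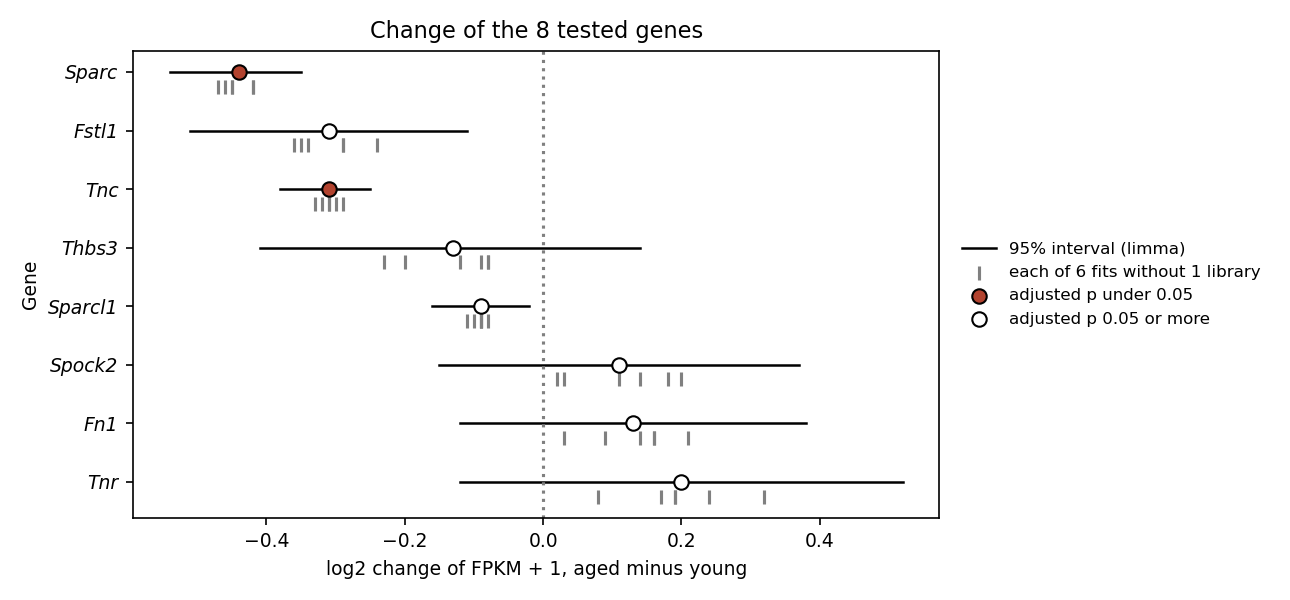
Log2 change of FPKM + 1, aged minus young, of the 8 tested genes, with the 95% limma interval as a line and the values from the 6 fits that each left out 1 library as grey ticks. Filled points are Sparc and Tnc, the 2 genes called. The intervals of Sparc, Fstl1, Tnc and Sparcl1 lie below 0, and those of Thbs3, Spock2, Fn1 and Tnr include 0.

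Genes that act with the members were followed in 5 lists by role, 105 genes in all, of which 103 were in the tables and 64 were tested. Of these 64, 1 rose, 1 fell and 62 were not called, where 0.722% of all genes tested were called. An unadjusted p under 0.05 was seen for 17 lower and 6 higher genes. Over all genes tested, 5.55% passed that mark as lower and 6.3% as higher in aged libraries. The median log2 change was -0.058, against 0.003 over all tested genes.

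Among 24 other matricellular and family genes, 22 were in the tables and 5 were tested, with 0 called by limma (unadjusted p under 0.05 for 2 lower and 0 higher ones). The other 17 had means under 1 FPKM, among them Tnn, Tnxb, Thbs2, Thbs4, Smoc2 and Ctgf, so Tnc, Sparcl1 and Sparc stood beside few other abundant family genes. The calcium-binding matrix protein Fbln2 had 316.47, 315.37 and 301.94 FPKM in aged libraries and 332.25, 332.57 and 337.48 FPKM in young libraries (limma adjusted p = 0.202). Its relative Fbln1 averaged 11.1 FPKM in aged and 13.1 FPKM in young libraries (0.223). Smoc1, a SPARC-related BMP modulator, averaged 95.8 FPKM in aged and 90.9 FPKM in young libraries (0.456). All 3 had libraries that did not overlap between the ages, the fibulins lower and Smoc1 higher in aged ones. They were named for having the smallest p of the list. Over all tested genes, 8.58% were lower and 8.98% higher without overlap.

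Of 26 receptors and surface partners, 18 were tested and 0 called by limma (unadjusted p under 0.05 for 5 lower and 1 higher ones, median log2 change -0.059). Ptprz1, a receptor phosphatase that binds tenascins, and Itgb1, the shared beta chain of many matrix receptors, were abundant and not called. The 3 with the smallest p were Itgb5, Itgav and Sdc4. Itgb5 averaged 21.2 FPKM in aged and 24.7 FPKM in young libraries (limma adjusted p = 0.14). Its partner chain Itgav averaged 36.1 FPKM in aged and 40.6 FPKM in young libraries (0.247). The heparan sulfate proteoglycan Sdc4, which cooperates with integrins on fibronectin and whose signalling tenascin C blocks, averaged 53.2 FPKM in aged and 58.1 FPKM in young libraries (0.272).

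Of 17 matrix partners, 13 were tested, 1 rose and 12 were not called (median log2 change -0.046). Cspg5, a transmembrane proteoglycan that binds tenascins, measured 108.52, 105.80 and 106.40 FPKM in aged libraries and 94.25, 93.09 and 94.19 FPKM in young libraries. It rose by 0.19 ± 0.03 on the log2 scale (SE; limma adjusted p = 0.0406), a call lost in every fit that left out 1 library (highest adjusted p 0.166, without aged 1). Bcan, the lectican brevican, which binds tenascin R, averaged 253.7 FPKM in aged and 228.6 FPKM in young libraries (0.0602), and was called once the filter on the mean was set at 5 FPKM. The laminin chain Lamb1 averaged 10.5 FPKM in aged and 12.2 FPKM in young libraries (0.298). Cspg5 and Bcan are also made by oligodendrocyte precursors, whose 3 markers summed to 22.1 to 23.8 FPKM in aged and 15.4 to 17.5 FPKM in young libraries. Each of these 3 markers was higher in every aged library than in any young one, and none was called. The part of such cells in these values was not tested.

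Of 21 proteases and inhibitors, 15 were tested, 1 fell and 14 were not called (median log2 change -0.084). Adamts4, a protease that cleaves brevican and other lecticans, measured 9.62, 10.55 and 9.91 FPKM in aged libraries and 13.71, 13.24 and 14.16 FPKM in young libraries. Its log2 change was -0.42 ± 0.06 (SE; limma adjusted p = 0.0255), and this call too was lost in every fit that left out 1 library (highest adjusted p 0.128, without young 1). The membrane metalloproteinase Mmp14 averaged 28.3 FPKM in aged and 32.9 FPKM in young libraries, and its inhibitor Timp2 26.9 and 30.6 FPKM (both limma adjusted p = 0.147). Of 17 inducers of matricellular genes, 13 were tested and 0 called by limma (unadjusted p under 0.05 for 2 lower and 0 higher ones, median log2 change -0.044). The smallest p were those of the TGF-beta mediators Smad4, at 23.6 FPKM in aged and 26.4 FPKM in young libraries (0.278), and Smad3, at 16.0 and 18.2 FPKM (0.352), followed by the receptor gene Tgfbr2 at 2.76 and 3.20 FPKM (0.714).

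**Figure D4:**
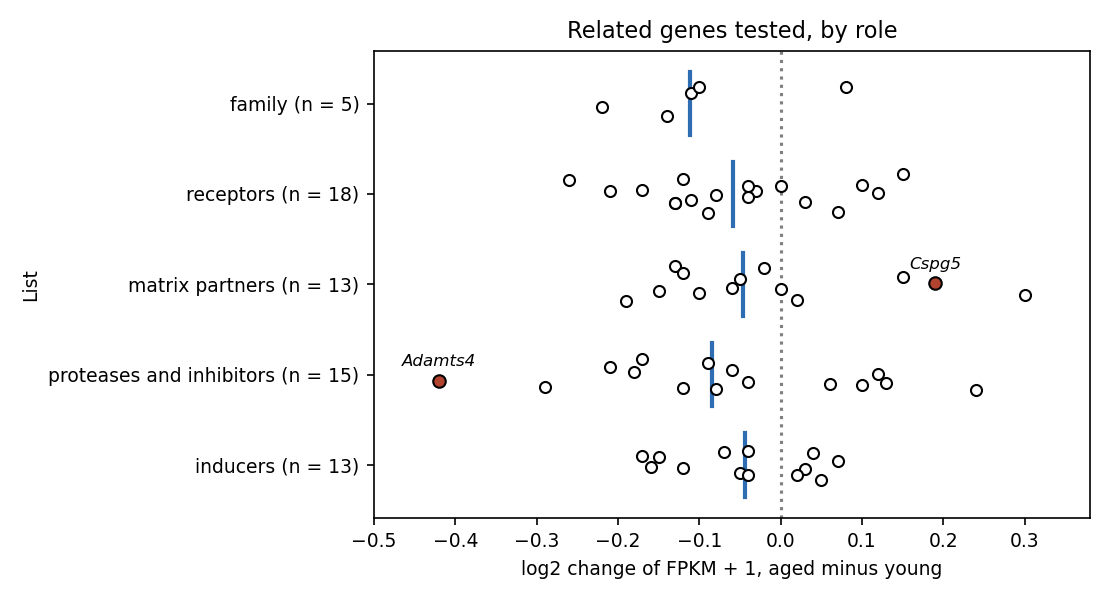
Log2 change of FPKM + 1, aged minus young, of the 64 related genes tested, 1 row per list with the number tested. Points are genes, filled where called (Cspg5 at 0.19 and Adamts4 at -0.42), and blue lines are list medians, which lie between -0.111 and -0.044.

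The genes whose profile over the 6 libraries was closest to that of Tnc were sought among 4256 genes averaging 20 FPKM or more, by the root mean square difference of centred log2(FPKM + 1) values. Among the 5 closest were Akap12 (difference 0.021), Fnbp1 (0.029) and Ccnd2 (0.032). Akap12 averaged 38.3 FPKM in aged and 48.3 FPKM in young libraries, and Ccnd2 248.4 and 305.8 FPKM. For Sparc the 5 closest included Trp53i11 (0.052), Hmga1 (0.076), Lgals1 (0.077) and Prss23 (0.078). Lgals1 averaged 377.1 FPKM in aged and 474.2 FPKM in young libraries. Tnc ranked 13 in likeness to Sparc (0.086), Sparc ranked 91 in likeness to Tnc, and Sparcl1 ranked 281 for Tnc and 301 for Sparc. With 6 libraries in 2 groups, any gene that differs between the ages by a like amount comes out as close.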

How the data were processed

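Total RNA of cultured neural stem cells was depleted of rRNA and sequenced in 6 libraries, 3 aged and 3 young. The authors deposited 1 table per library, with 1 FPKM value per gene to 2 decimals, per the file headers. The submitters' processing notes name TopHat, Cuffdiff and mm10. Versions, annotation, strand setting, filters and normalization between libraries are not given in the sources used here. Without the strand, reads of a member and of an overlapping antisense transcript cannot be told apart; RefSeq lists an overlapping non-coding gene for 7 of the 10 members.

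Members were matched by symbol. Coordinates, counted from 1, came from RefSeq GRCm38.p6 by gene identifier (16962 of 17006 matched). Because FPKM are not counts, values were compared as log2(FPKM + 1) by limma 3.58.1 under R 4.3.3 (lmFit, then eBayes with a trend and no covariates). The 11912 genes averaging 1 FPKM or more were tested, two-sided, Benjamini-Hochberg adjusted over those genes, threshold 0.05. Changes on this scale understate those of low genes. limma was tested on simulated data. Reads were estimated from steps in the low values of single-transcript genes: between 1.5 and 3.5 estimated reads, 65.0% to 68.1% of values lay within 0.15 of a whole number, against 30% for evenly spread values. For genes with several transcripts these are rough, and coefficients from counting cover counting error only.

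The members and lists were chosen with earlier results of these data known. Text names all members and, of each related list, called genes and the 3 smallest adjusted p. Some genes these rules or lists take are not reported here. Other genes of the lists are named as examples of abundant or unmeasured members. Tables were made with Python 3.11.15 and pandas 2.3.3, and figures drawn with matplotlib 3.10.9. Alternatives changed the pseudocount (0.1, 5), the filter (none, a mean of 5 FPKM), the scaling (quantile, TPM), the trend, a replicate block, and left out each library in turn.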

Additional observations from a re-analysis of the deposited data

How the results depend on the processing

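Each of the 8 tested members kept its direction in every alternative in which it was tested (14, or 13 for Tnr and Thbs3, which lie under the stricter filter). Over them the log2 change ranged from -0.33 to -0.29 for Tnc, -0.47 to -0.42 for Sparc, -0.11 to -0.08 for Sparcl1, -0.36 to -0.22 for Fstl1, -0.23 to -0.07 for Thbs3, 0.02 to 0.20 for Spock2, 0.03 to 0.21 for Fn1 and 0.08 to 0.32 for Tnr. The pair of calls among members, Tnc and Sparc, held in 13 of 14 alternatives, including each fit without 1 library (2 calls in every one, highest limma adjusted p 0.0283 for Tnc and 0.0243 for Sparc), and fell to 0 without the trend, against 2 in the fit reported. The other 6 were called in none.

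Without the trend, 11 of all genes and 0 of the related genes were called, against 86 and 2. Under the replicate block, 22 genes and 0 related genes were called. Same-numbered libraries did not deviate together (r of 0.00795, -0.0719 and 0.108), so the numbers are not taken to pair them. Leaving out 1 library gave 39 to 63 calls, with 0 among related genes each time. Related calls were 1 with no filter (Cspg5), 1 with quantile normalization or TPM (Adamts4), and 3 of 108 calls with a filter at a mean of 5 FPKM, which added Bcan to Adamts4 and Cspg5. The cause of these differences was not tested. Depth limits Spock1 and Thbs1 most.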

Other observations

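Some related genes under the filter had libraries that did not overlap between the ages. The 3 given here were chosen after their values were seen. Over all tested genes, 8.58% were lower and 8.98% higher without overlap, and no such share was taken over genes under the filter. Thbs2, a thrombospondin, lay at 0.62, 0.53 and 0.62 FPKM in aged libraries and 1.04, 1.03 and 0.98 FPKM in young libraries, about 18.6 and 32.9 estimated reads. In the fit with no filter its limma adjusted p was 0.198. Fbln5, a fibulin of elastic fibres, lay at 0.41, 0.38 and 0.44 FPKM in aged libraries and at 0.15 to 0.21 FPKM in young libraries (limma adjusted p = 0.231 with no filter). Tgfb1, the ligand that induces many matricellular genes in other cells, was listed at 0.27 FPKM in all 3 aged libraries and at 0.78, 0.87 and 0.35 FPKM in young libraries, about 3.14 and 7.95 estimated reads (limma adjusted p = 0.376 with no filter). None of the 3 was called.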
